A study of Homo sapiens with 9 samples.

Results

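AC011893.1 is a long non-coding RNA gene that lies inside the lactase gene LCT on 2q21 and is read from the other DNA strand. It is described here with LCT itself and with 4 neighbouring genes of the same chromosome band, UBXN4, R3HDM1, DARS and ZRANB3, so that 6 of the 58096 genes in the deposited files are followed. AC011893.1 and the reads on the strand opposite LCT were chosen by their counts in these libraries, which were higher after both siRNAs against TLX1 than after a scrambled siRNA. Their difference from the scrambled libraries is therefore given as a description, with no test, and supports nothing. Of this difference, a test is shown only for the opposite-strand LCT reads outside AC011893.1 exons, which did not pass. Those reads are part of the chosen ones, so that test is not independent of the choice and supports nothing either. The neighbours and the reads on LCT's own strand were taken for their position.

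The cells were ALL-SIL, an established human T-cell acute lymphoblastic leukaemia line that expresses the homeobox transcription factor TLX1. All libraries came from this 1 line, electroporated with siRNA, and total RNA was sequenced after ribosomal RNA depletion with a kit that keeps the strand. The 3 groups, each with 3 libraries, were a scrambled siRNA (labelled 400 nM, 24 h), TLX1 siRNA s46 (24 h) and TLX1 siRNA s47 (24 h). The labels number the replicates but do not say that they came from separate cultures, so the p-values measure only the spread between these libraries, which may be technical. Both siRNA groups were compared with the same 3 scrambled libraries.

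The deposited tables held 21134650 to 33393740 reads per library on the gene's own strand. The targeted gene followed the labels: TLX1 lay at 171.3 to 198.1 CPM (read counts scaled to the size of the library) in the scrambled libraries and at 63.5 to 87.3 CPM in the 6 TLX1 siRNA libraries (log2 fold change -1.34 ± 0.11 SE, adjusted p = 0.000394). Library scrambled 1 stood apart, with 14.4% of its reads mapping to several places against 6.36% to 7.34% in the other 8 libraries. It also had the fewest gene reads (21134650 against at least 26130506). Its shares of opposite-strand gene reads (6.32% against at most 5.84%), of reads outside genes (35.9% against at most 31.4%) and of unmapped reads (6.70% against at most 5.61%) were the highest. The own-strand values of AC011893.1, its neighbours and their partner genes that moved by over 1.5 times without it are given both ways. In bulk RNA, a change in the number of cells that express a gene and a change of its RNA per cell cannot be told apart. Of 8 markers of intestinal epithelium, the tissue that makes lactase, LCT was the only one with enough reads to test. The other 7, among them SI, CDX2 and HNF4A, had at most 8 reads in any library, while the 7 T-lineage markers other than TLX1, the siRNA target, summed to 1251 CPM in the scrambled group, 1298 CPM with s46 and 1283 CPM with s47.

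LCT encodes lactase-phlorizin hydrolase, the enzyme of the small-intestinal brush border that splits milk sugar. In enterocytes it is driven by CDX2 and GATA factors, among others, and its activity usually declines after weaning. Antisense long non-coding RNAs are transcribed across another gene in the opposite direction. Over bases where exons of both genes overlap, only reads that keep their strand can be assigned to 1 of them. Where both genes have an exon over the same bases, a read there counts for 1 gene on its own strand and for the other gene on the opposite strand. TLX1, RUNX1 and ETS1 are transcription factors known to share binding sites in T-ALL cells.

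In GENCODE 29 (GRCh38), AC011893.1 (ENSG00000226806.1, LCT-AS1 in RefSeq) spans chromosome 2 from 135820191 to 135823087 on the plus strand. Its single transcript has 2 exons of 449 and 1413 bases, 1862 bases together, separated by an intron of 1035 bases. LCT (ENSG00000115850.9) spans 135787840 to 135837180 on the minus strand with 17 exons. AC011893.1 lies within it, and the exons of the genes overlap only at LCT exon 5, over 79 bases (135822020 to 135822098) inside exon 2 of AC011893.1. UBXN4, the nearest gene upstream on the plus strand, ends 35135 bases before the start of AC011893.1. MCM6, on the minus strand, ends 16538 bases beyond it, DARS (minus strand) 83589 bases, R3HDM1 (plus strand) 94920 bases and ZRANB3 (minus strand) 288954 bases away.

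**Figure D1:**
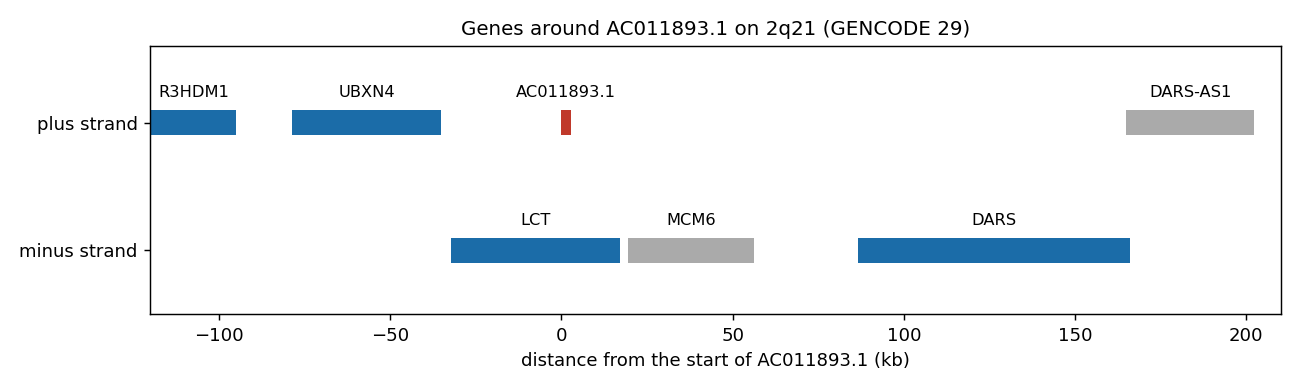
Genes around AC011893.1, drawn to scale; the horizontal axis is the distance from the start of AC011893.1 in kb and the rows are the DNA strands (red, AC011893.1; blue, LCT and its neighbours; grey, other genes). R3HDM1 runs past the left edge, and ZRANB3 lies farther left. AC011893.1 lies wholly inside LCT, on the strand of UBXN4 and R3HDM1.

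The stretch in which the exons overlap is shown because reads that touch it count for AC011893.1 on its own strand and for LCT on the opposite strand. It is read from the GRCh38 genome at chr2:135822005-135822113, plus strand, with the 79 overlapping bases in capitals and 15 bases on either side.
Overlap with LCT exon 5: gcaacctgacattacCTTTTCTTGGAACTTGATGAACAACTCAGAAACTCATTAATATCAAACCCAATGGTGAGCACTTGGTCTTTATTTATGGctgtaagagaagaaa

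The 300 bases around the start of AC011893.1 are shown because the annotation gives this RNA a start of its own inside LCT. They are RefSeq's LCT-AS1 promoter (GRCh38.p14, chr2:135819941-135820240, plus strand), 250 bases before the start and 50 after it, and its last 50 bases are the first 50 of the GENCODE 29 transcript. Capitals mark matches to the RUNX core TGNGGT, which both lie on the minus strand and so appear as its reverse complement, and to the homeodomain core TAAT.
LCT-AS1 promoter: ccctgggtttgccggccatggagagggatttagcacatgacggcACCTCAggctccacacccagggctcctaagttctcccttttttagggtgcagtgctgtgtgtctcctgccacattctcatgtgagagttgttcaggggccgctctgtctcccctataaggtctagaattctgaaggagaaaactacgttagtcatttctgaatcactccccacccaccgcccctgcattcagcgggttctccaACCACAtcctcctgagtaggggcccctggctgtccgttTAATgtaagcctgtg

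The RUNX core, searched as TGNGGT with N for any base, was found 2 times, as TGAGGT at -206 and as TGTGGT at -3 from the start. Of 35116 promoters of this length, 43.24% hold TGNGGT on either strand. The homeodomain core was found 1 time, at 36 bases after the start, and 50.22% of promoters hold it. The ETS core GGAA had 0 matches, against 95.45% of promoters with 1 or more, and the TATA box TATAAA had 0 matches, against 11.53%. The E-box CANNTG had 2 matches (68.68% of promoters have it) and the GC box GGGCGG had 1 (44.95%). The window holds 7 CpG dinucleotides, and the median promoter holds 14. Both strands were searched, overlapping matches of different motifs were each counted, and a match describes letters and not a bound site.

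AC011893.1 was found in every library and was higher in all 6 TLX1 siRNA libraries than in any scrambled library. On its own strand it had 29.2, 60.5 and 37.2 CPM in the scrambled libraries numbered 1, 2 and 3. With s46 it had 103.3, 122.7 and 110.8 CPM, and with s47 110.2, 129.1 and 125.0 CPM. The groups did not overlap, and scrambled 2 lay closest to the siRNA libraries. The reads behind these levels numbered 651 to 1796 per scrambled library and 2709 to 4058 per siRNA library. The group means were 42.3 ± 16.3 CPM (SD, n = 3) with the scrambled siRNA, 112.3 ± 9.79 with s46 and 121.4 ± 9.92 with s47. The fitted difference between the mean of both siRNAs and scrambled was 1.46 ± 0.19 on the log2 scale (SE), or 2.76-fold. It was 1.26 without scrambled 1 and 1.82 without scrambled 2. As background, 0.566% of the 16072 genes tested on their own strand (91 genes) passed an adjusted p of 0.05 in that comparison, a contrast that chose AC011893.1.

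The levels of AC011893.1 overlapped between s46 and s47, and this contrast played no part in its choice. The log2 difference of s46 from s47 was -0.11 ± 0.21 (SE), with an adjusted p of 1.00 by edgeR's quasi-likelihood test. None of the 16072 genes passed the threshold between the siRNAs (0%), 113 had an unadjusted p under 0.05, and DESeq2 also called 0. A p that misses the threshold does not show that the siRNAs act alike.

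**Figure D2:**
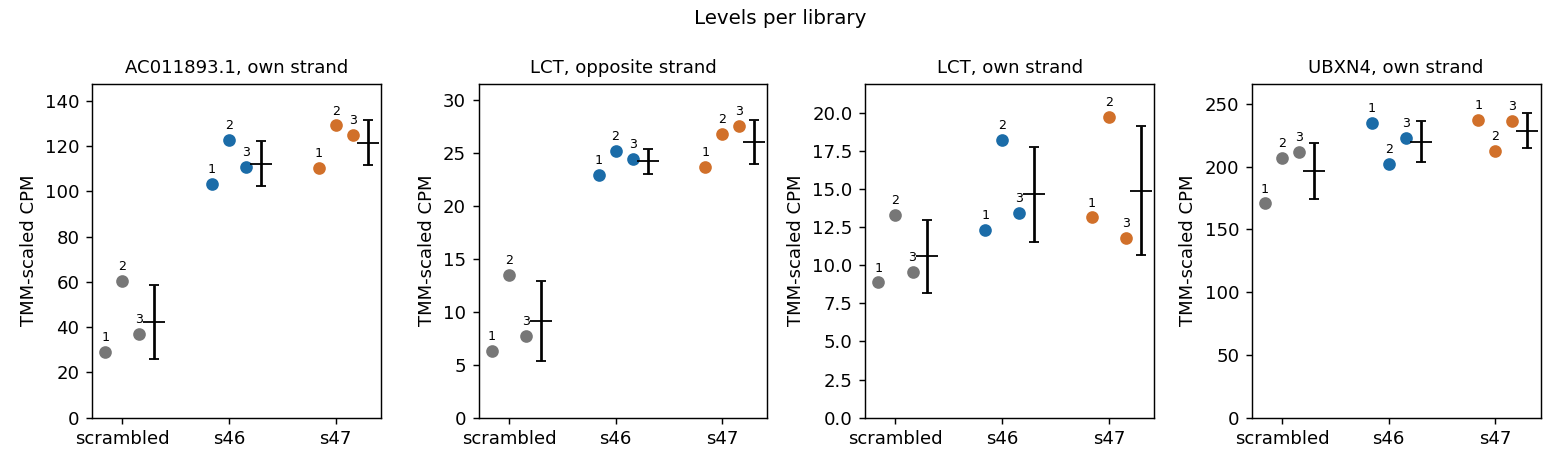
TMM-scaled CPM (vertical axes, from 0) per library for AC011893.1 on its own strand, for LCT on the opposite and on its own strand, and for UBXN4; numbered points are libraries and bars are the group mean ± SD (n = 3). The AC011893.1 and opposite-strand LCT points of the siRNA groups all lie above the scrambled points, while those of LCT's own strand and of UBXN4 overlap.

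AC011893.1 ranked high among antisense RNAs of these cells. By mean CPM over the 9 libraries it was 8th of the 1054 tested genes that GENCODE 29 types as antisense, and per kb of exon it was 3rd. In the scrambled libraries alone it was 17th. Among 2845 long non-coding genes it ranked 28th, or 61st in the scrambled libraries, and among all 16072 genes 2905th, or 5269th in the scrambled libraries. The median antisense gene had 1.11 CPM.

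Per kb of exon, AC011893.1 passed UBXN4, a ubiquitously expressed gene, in the siRNA libraries. AC011893.1 had 15.7 to 32.5 CPM per kb in the scrambled libraries and 55.5 to 69.3 in the siRNA libraries. UBXN4 had 33.4 to 41.4 CPM per kb in the scrambled libraries and 39.5 to 46.5 in the siRNA libraries. Within a library, the AC011893.1 level per kb was 0.469 to 0.804 times that of UBXN4 with the scrambled siRNA and 1.21 to 1.67 times with the TLX1 siRNAs. The log2 ratio of AC011893.1 to UBXN4 differed by 1.33 between siRNA and scrambled libraries. As a ratio of genes in the same library, that value needs no scaling between libraries.

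Nearly all reads over the exons of AC011893.1 ran in its own direction. Reads on the opposite strand, the direction of LCT, made up 0.239% to 1.66% of the reads at AC011893.1, or 6 to 25 reads per library. Over all genes, 5.22% to 6.32% of gene reads in a library were on the opposite strand.

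The reads on the strand opposite LCT followed AC011893.1. They gave 6.27, 13.5 and 7.71 CPM in scrambled libraries 1, 2 and 3. They gave 22.9, 25.2 and 24.5 CPM with s46 and 23.7, 26.9 and 27.5 CPM with s47. Every siRNA library was above every scrambled library. The fitted log2 difference of the siRNAs from scrambled was 1.56 ± 0.23 (SE), 2.94-fold, and it was 1.30 without scrambled 1 and 2.04 without scrambled 2. With the library sizes of the own-strand reads, which the CPM values use, it was 1.45. On the opposite strand, 0.0201% of the 9964 genes tested (2 genes) passed the threshold, in a contrast that chose these reads, and DESeq2 called 26. Between s46 and s47 the log2 difference was -0.12 ± 0.24 (SE, adjusted p = 1.00).

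Comparing the stranded columns with the unstranded column gave the number of reads that touched exons of both genes. A read over both is counted for each gene when strand is kept and for neither when it is not, and the number worked out from AC011893.1 equalled the number worked out from LCT in all 9 libraries. The shared reads numbered 80, 283 and 161 in scrambled libraries 1, 2 and 3. They numbered 459, 541 and 631 with s46 and 502, 632 and 626 with s47. They made up at most 57.1% to 76.7% of the opposite-strand LCT reads with the scrambled siRNA and at most 74.5% to 79.4% with the TLX1 siRNAs. These are upper limits because a few shared reads may run in LCT's own direction. Most of the opposite-strand signal of LCT was thus made of reads that also count for AC011893.1, and the values of the pair are not independent. For scrambled 1 this is not assured, since up to 71 of its 140 opposite-strand reads may lie outside AC011893.1 exons.

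A smaller number of reads lay opposite LCT exons and outside the exons of AC011893.1. There were at least 60, 116 and 49 such reads in scrambled libraries 1, 2 and 3, at least 142, 185 and 180 with s46, and at least 130, 212 and 202 with s47. The few reads in LCT's direction over the shared exon could add at most 6 to 25 reads to a library. Scaled to depth, these reads gave 2.80 ± 1.06 CPM (SD, n = 3) with the scrambled siRNA and 5.93 ± 0.80 CPM (SD, n = 6) with the TLX1 siRNAs. The 6 siRNA libraries, at 4.87 to 6.74 CPM, were all above the scrambled libraries, at 1.80 to 3.91 CPM. The mean was 2.12-fold higher. The fitted log2 difference was 1.20 ± 0.24 (SE) and did not pass the threshold (adjusted p = 0.211). These reads are part of the opposite-strand LCT reads that were chosen by their counts in the same contrast. That p is therefore not independent of the choice and supports nothing. Per kb, the level of AC011893.1 was 37.9 to 79.1 times that of the antisense reads over the other 6507 exon bases of LCT. Where along LCT these reads lay cannot be read from counts per gene.

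**Figure D3:**
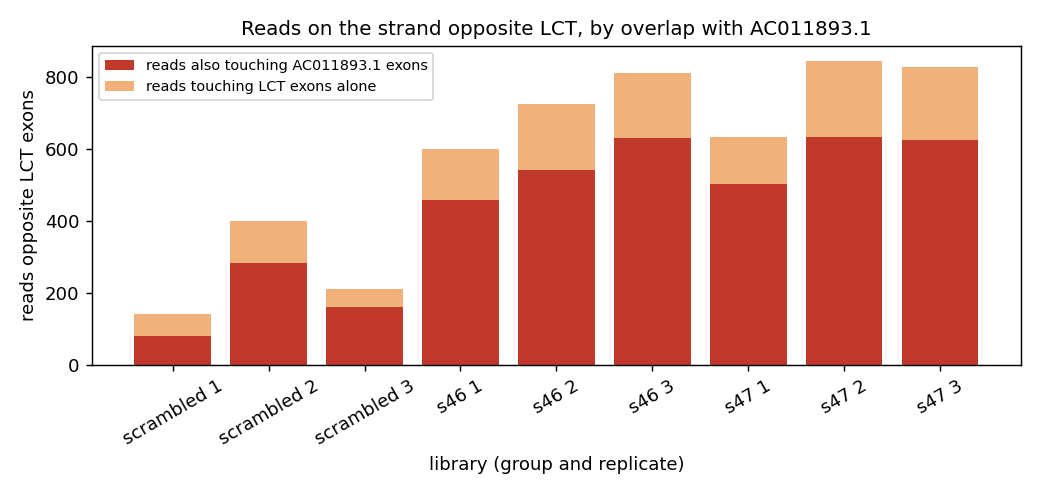
Reads on the strand opposite LCT exons (vertical axis, reads, not scaled to depth) in each of the 9 libraries, split into reads that also touch AC011893.1 exons (red) and the rest (orange); the split can be off by at most 25 reads in a library. Both portions are larger in each siRNA library than in any scrambled library.

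LCT itself was measured at a low level on its own strand. It had 8.87, 13.3 and 9.58 CPM in scrambled libraries 1, 2 and 3, 12.3, 18.2 and 13.4 CPM with s46, and 13.1, 19.7 and 11.8 CPM with s47. The groups overlapped: 3 of the 6 siRNA libraries were above all scrambled libraries. The log2 difference of the siRNAs from scrambled was 0.48 ± 0.20 (SE) and did not pass the threshold (adjusted p = 0.258). That p was 0.695 without scrambled 1 and 0.0699 without scrambled 2. In each group the library numbered 2 had the highest level of LCT on its own strand, of AC011893.1, and of opposite-strand reads at UBXN4 (4.82 CPM with scrambled, 6.05 with s46 and 7.09 with s47).

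The balance between the strands of LCT differed between the groups. There were 0.707 to 1.01 opposite-strand reads per own-strand read at LCT in the scrambled libraries and 1.36 to 2.33 in the siRNA libraries, with no overlap. For every 100 AC011893.1 reads there were 22.0 to 30.4 LCT reads on LCT's own strand with the scrambled siRNA and 9.45 to 15.3 with the TLX1 siRNAs. The reads that chose AC011893.1 enter both ratios. Against MCM6, a replicative helicase subunit and the next gene upstream of LCT on its strand, LCT had 2.20 to 4.18 reads per 100 MCM6 reads with scrambled and 2.85 to 5.59 with the siRNAs, and these ranges overlapped.

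Other genes of the enterocyte were at or near 0 beside LCT. Of 19 other brush border enzymes and regulators of lactase, 6 had no read in any library and only MGAM, the maltase-glucoamylase of the brush border, had enough reads to test (log2 difference -0.84, adjusted p = 0.528).

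None of the neighbours passed the test. Within 1 Mb on either side of AC011893.1 there are 25 other annotated genes, and 13 had enough reads on their own strand. Of these 13, 0 passed the threshold, against 0.566% of all genes, and DESeq2 called 0. An unadjusted p under 0.05 was found for 2 (LCT and CXCR4), against 2859 of all 16072 genes tested. The log2 difference was above 0 for 10 and below 0 for 3, and above 0 for 7475 of all 16072 genes tested. The median was 0.19 against -0.027 over all genes tested. Without scrambled 1, a check added after the data had been seen, 0 of the 13 passed, 11 were above 0 and 2 below, and the median was 0.088 against -0.0087 over all genes.

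UBXN4 encodes a protein of the endoplasmic reticulum membrane that brings the ATPase p97 to ER-associated degradation. It had 170.7, 206.8 and 211.9 CPM in scrambled libraries 1, 2 and 3 and 202.1 to 237.5 CPM in the siRNA libraries, of which 5 of 6 lay above all scrambled libraries. The log2 difference was 0.19 ± 0.11 (SE, adjusted p = 0.352) and 0.10 without scrambled 1. AC011893.1, downstream of UBXN4 on the same strand, gave 17.1 to 29.3 reads per 100 UBXN4 reads with the scrambled siRNA and 44.0 to 60.7 with the TLX1 siRNAs.

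R3HDM1 encodes an R3H-domain RNA-binding protein, and an intron of it hosts a copy of the microRNA miR-128. It had 87.4, 47.6 and 50.6 CPM in scrambled libraries 1, 2 and 3 and 42.8 to 56.8 CPM in the siRNA libraries. Scrambled 1 alone stood above all others. The log2 difference of -0.31 ± 0.18 (SE, adjusted p = 0.376) was 0.023 without that library, so its sign rests on it.

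DARS encodes the cytosolic aspartyl-tRNA synthetase, which charges transfer RNA with aspartate. It had 117.5, 212.3 and 183.4 CPM in scrambled libraries 1, 2 and 3 and 190.1 to 216.8 CPM with the siRNAs. Here scrambled 1 was the lowest library. The log2 difference was 0.24 ± 0.15 (SE, adjusted p = 0.404) and 0.035 without scrambled 1. DARS-AS1, the antisense RNA at the DARS start, had a log2 difference of -0.31 (adjusted p = 0.548).

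ZRANB3 encodes a translocase that remodels stalled replication forks. It had 28.2, 35.3 and 36.4 CPM in scrambled libraries 1, 2 and 3 and 35.6 to 41.8 CPM with the siRNAs. The log2 difference was 0.19 ± 0.11 (SE, adjusted p = 0.379) and 0.088 without scrambled 1. Scrambled 1 was thus the lowest library for UBXN4, DARS and ZRANB3 and the highest for R3HDM1. It also had a larger share of reads with several mapping places, fewer gene reads and other differing read shares. The part of these in the values was not tested.

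None of the other tested genes of the window passed the threshold either. CXCR4, the chemokine receptor that T-ALL cells use to home to bone marrow, had 206.5 to 266.9 CPM in the scrambled libraries and 276.9 to 356.9 CPM with the siRNAs. The log2 difference was 0.31 ± 0.12 (SE, adjusted p = 0.237), the lowest adjusted p of the 13 genes. Without scrambled 1 the difference was 0.20 (adjusted p = 0.654). MCM6 differed by 0.086 (adjusted p = 0.698) and by 0.18 without scrambled 1. CCNT2, a cyclin of the elongation factor P-TEFb, differed by 0.24 (adjusted p = 0.311) and RAB3GAP1, which acts on Rab GTPases, by 0.24 (adjusted p = 0.353). Scrambled 1 was the lowest library for both, and without it these differences were 0.088 and 0.069. The pseudogenes AC064850.1, AC011999.1 and HNRNPKP2 differed by -0.45, 0.24 and 0.012, and none passed the threshold; without scrambled 1 they were 0.20, 0.47 and -0.11. Between s46 and s47, 0 of these genes passed the threshold.

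On the strand opposite the neighbours, 8 genes other than AC011893.1 and LCT had enough reads. Of these, 0 passed the threshold, against 0.0201% of the 9964 genes tested, and DESeq2 called 0. An unadjusted p under 0.05 was found for 2 of them, against 982 of the 9964. These 2 were ZRANB3, whose opposite-strand reads differed by 0.59 ± 0.23 on the log2 scale (SE, adjusted p = 0.438), and UBXN4, with 0.53 ± 0.22 (SE, adjusted p = 0.467). ZRANB3 had 2.02 to 3.23 CPM of such reads with scrambled and 3.48 to 4.31 with the siRNAs, far below those opposite LCT with the siRNAs. The span of RAB3GAP1 (plus strand, to 135176394) overlaps that of ZRANB3 (minus strand, from 135136916). Whether reads there counted for both genes was not tested.

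**Figure D4:**
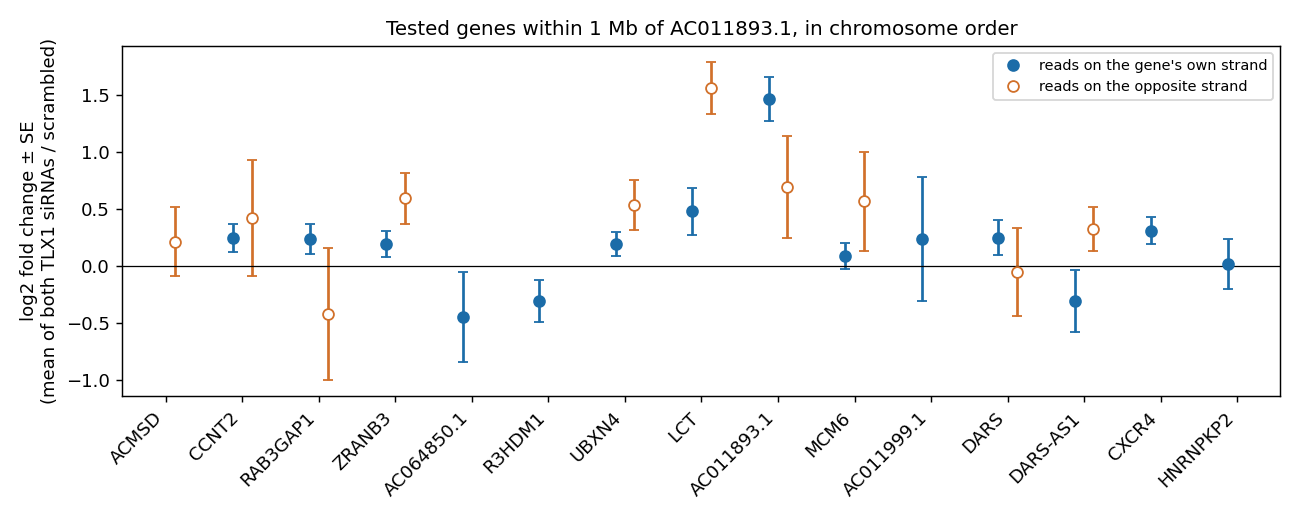
Log2 fold change ± SE, averaged over s46 and s47 and relative to the scrambled siRNA (vertical axis), for each tested gene within 1 Mb of AC011893.1, in chromosome order (horizontal axis), for reads on the gene's own strand (filled) and on the opposite strand (open). AC011893.1 at 1.46 and the opposite strand of LCT at 1.56, which were chosen for their difference, stand above all other values, which lie between -0.45 and 0.69.

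Of the 65 tested genes listed as partners or relatives of the neighbours, 1 passed the threshold, against 0.566% of all genes tested. As background, the log2 difference was above 0 for 7475 of the 16072 genes tested. Of 23 tested genes of p97 and ER-associated degradation, the pathway of UBXN4, 0 passed the threshold, 14 were above 0 and 9 below, with a median log2 difference of 0.031. VCP, which is p97 itself, differed by 0.013 ± 0.11 (SE; -0.058 without scrambled 1) and EDEM3, a mannosidase that marks misfolded glycoproteins, by 0.29 ± 0.11 (0.17 without scrambled 1). Of 22 cytosolic aminoacyl-tRNA synthetases and their scaffold proteins, listed with DARS, 0 passed, 17 were above 0 and 5 below, with a median of 0.13. IARS differed by 0.26 ± 0.12 and EPRS by 0.31 ± 0.12, or by 0.13 and 0.20 without scrambled 1. Of 15 fork remodelling genes, listed with ZRANB3, 0 passed, 10 were above 0 and 5 below, with a median of 0.16. PCNA, the sliding clamp, differed by 0.36 ± 0.16 and the helicase gene BLM by 0.22 ± 0.12. Of 5 relatives of R3HDM1, ARPP21, whose intron hosts the other copy of miR-128, rose by 0.84 ± 0.13 (SE, adjusted p = 0.0135), from 17.3 CPM with scrambled to 30.2 with s46 and 31.5 with s47; the adjusted p was 0.0669 without scrambled 3. The other 4 did not pass. Because the lists were chosen with earlier results of these data known, the p of ARPP21 is not independent of them. Without scrambled 1 the medians of the ER-associated degradation, synthetase and fork lists were -0.017, 0.080 and 0.075, and ARPP21 was again the only member of the 4 lists past the threshold.

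Across the 9 libraries, the genes whose log2 CPM was most like that of AC011893.1 among 11513 expressed genes were MFSD14A (Pearson r = 0.991), MTPN (0.988), CCR8 (0.986), FAM120AOS (0.983) and G3BP2 (0.982). The least alike were ADCY7 (-0.986), ITGB7 (-0.983) and PTPRJ (-0.976). None of these 8 genes lies on chromosome 2. There were 222 genes with r over 0.9 and 78 under -0.9. Among the neighbours, r was 0.825 for CXCR4, 0.774 for LCT, 0.705 for UBXN4 and -0.620 for R3HDM1. All points share the same 9 libraries in 3 groups, so these values describe a common pattern and carry no test.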

How the data were processed

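Strand-specific total RNA-seq libraries of ALL-SIL cells (9, in 3 groups of 3) were analysed from the authors' deposited counts. Each deposited table holds whole-number read counts per Ensembl gene in 3 columns: unstranded, one strand and the other strand, with 4 leading lines of unassigned reads, which entered neither library sizes nor tests. Library preparation kept the strand, per the labels' protocols, and the submitters' processing notes name GRCh38 as the build; which aligner and which annotation were used is not given in the sources used here. Of 58096 gene IDs, 57488 matched GENCODE 29 when version numbers were ignored. The last column holds most gene reads and was taken as the gene's own strand, and the column before it as the opposite strand.

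Counts were fitted with edgeR 4.0.16 (TMM, filterByExpr with a minimum count of 10, robust glmQLFit and glmQLFTest) in R 4.3.3, all 9 libraries in 1 fit, separately for each strand. The Benjamini-Hochberg adjustment ran over every gene of a fit, and an adjusted p under 0.05 counted as past the threshold. CPM values of both strands use the TMM-scaled library sizes of the own-strand reads. The opposite-strand fits used library sizes of the opposite-strand reads, so their fold changes differ somewhat from ratios of the CPM values. Log2 fold changes are those of the fit. DESeq2 1.42.0, other scalings, other count filters, unstranded counts, a replicate block and leaving out each library were tried as alternatives. The ratio of AC011893.1 to UBXN4 used a pseudocount of 0.1 CPM and the correlations 0.5. The fit was tested on simulated counts, but the outcome is not given here and no value above rests on it.

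The named genes are the 6 members, the other tested genes within 1 Mb, the 5 genes most and the 3 least correlated with AC011893.1 among genes with a mean log2 CPM of at least 1, and of each gene list the called members and up to 4 others of highest mean CPM. Members and lists were chosen with earlier results of these data known.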

Additional observations from a re-analysis of the deposited data

How the results depend on the processing

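The number of genes past the threshold between the TLX1 siRNAs and scrambled depended most on the processing: 91 as reported, 458 with DESeq2, 876 with no filter on low counts, 222 with a replicate block, and 22 (without scrambled 3) to 1650 (without scrambled 2) when 1 library was left out. The log2 difference of AC011893.1 ranged from 1.26 to 1.82 and that of the opposite-strand LCT reads from 1.30 to 2.04 with 1 library left out, highest without scrambled 2. Among the genes of the window, 0 passed the threshold under each of 16 alternatives, and AC011893.1 differed by -0.18 to -0.062 between s46 and s47 under 17. Signs turned for 5 genes, none of them past the threshold: with 1 library left out, R3HDM1 ranged from -0.46 to 0.023, AC064850.1 from -0.85 to 0.20, AC011999.1 from -0.27 to 0.70, HNRNPKP2 from -0.11 to 0.19 and VCP from -0.058 to 0.10. Those of R3HDM1 and AC064850.1 turned without scrambled 1 alone, and that of AC011999.1 without scrambled 2 alone. With library totals, HNRNPKP2 was at -0.049 and VCP at -0.051, and with a minimum count of 50 at -0.0025 and -0.0024. ARPP21 missed the threshold without scrambled 3 (adjusted p = 0.0669), and EPRS passed it without scrambled 2 (log2 difference 0.44, adjusted p = 0.0382). The causes of these shifts were not tested.

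The labels do not say that a replicate number marks anything shared, and the numbers were not taken to pair the samples because deviations of same-numbered libraries did not all correlate above 0.1. They correlated at -0.053 to 0.524 over 9 pairs, and those of differently numbered libraries at -0.370 to 0.169 over 18 pairs (7 of 9 libraries correlated best with their own number in both other groups, a hint from the data and not the design). With the replicate block, AC011893.1 differed from scrambled by 1.51 and the opposite-strand LCT reads by 1.62 (log2). The adjusted p of LCT's own strand was then 0.0717 and that of CXCR4 0.124, against 0.258 and 0.237 as reported.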

Other observations

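The mature microRNA miR-128-3p, made from introns of R3HDM1 and ARPP21, has in RefSeq the sequence below, with its seed (bases 2 to 8) in capitals; it is shown because its host gene lies in the same band as AC011893.1.
hsa-miR-128-3p: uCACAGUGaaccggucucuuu

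The site that pairs with this seed, CACTGTG, had 0 matches in the 1862 bases of the AC011893.1 transcript. Of 2436 long non-coding transcripts of 1490 to 2326 bases in GENCODE 29, 23.07% hold it. The precursor gene MIR128-1 had 1 to 6 reads per library, too few to test, and libraries of long fragments do not measure the mature form.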
